A study of Ovis aries with 6 samples.

Results

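FTH1, MT3 and ATOX1 code for proteins that handle metals: the heavy chain of ferritin, a metallothionein and a copper chaperone. Their mRNA was followed in dorsal skin of Hu sheep lambs, a Chinese breed kept for the wavy coat of its newborns, by taking every non-control probe whose RefSeq accession belongs to 1 of the 3 genes. The array held 7 such probes of 15008 in all: 3 for FTH1, 2 for MT3 and 2 for ATOX1. All 7 passed the filter on dim probes.

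The samples were skin of 3 lambs with a large wave coat and of 3 with a small wave coat, all Hu lambs at 2 days of age, with 1 lamb per one-colour array and no treatment named. The series' design text gives the lambs 1 sire and each pair of a large and a small wave lamb 1 dam. Sex and the position of the sample within the coat pattern are not given in the sources used here. All 6 arrays lay on 1 slide.

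Ferritin is a hollow shell of heavy and light chains that stores iron inside the cell, and the heavy chain FTH1 oxidises ferrous iron so that it can be stored. Metallothioneins are small cysteine-rich proteins that bind zinc and copper, and MT3 is the member best known from brain. ATOX1 carries copper from the entry site to the copper pumps of the secretory pathway, which load copper enzymes such as tyrosinase and lysyl oxidase. In sheep, lack of copper is known to give wool without its normal crimp.

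The labelled tissue was checked first. Of the listed skin, blood, fat and muscle markers, 13 were on the array, and 9 of these were well above background on all 6 arrays. Among them the epidermal gene SFN ranked 20 and the hair keratin V15 ranked 44 by mean signal, while the red cell gene HBB ranked 1838 and the macrophage gene CD14 ranked 7685. With outlier-marked spots kept, the groups did not overlap for 2 of the 13, where the share over all probes tested was 9.74%. Both were from skeletal muscle: TNNC2 had lower values in large wave skin (-1.35 on the log2 scale) and MYL11 higher ones (0.74). The part of such cells in the values of the 3 genes was not tested. The arrays differed in brightness. The 75th percentile of the signal, used to scale each array, ran from 205 to 392 in large wave and from 94.7 to 285 in small wave arrays. In bulk skin, fewer cells of a type and less RNA per cell cannot be told apart.

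All 42 spots of the 3 genes were well above background and 0 were saturated. The scanning software marked 9 of them, 21.4%, as outliers for uneven pixels, against 1.28% of all 91248 spots. FTH1 had 6 marked spots of 18, MT3 had 3 of 12 and ATOX1 had 0 of 12. Values are therefore given both without marked spots, as in the main test, and with them. They are log2 signals minus the log2 of the array's 75th percentile, so that 0 is the 75th percentile of that array and each unit is a doubling. Apart from the outlier marks, the software flagged 9 FTH1 spots, and 0 at MT3 and ATOX1, as scaled up from a scan at low photomultiplier gain.

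By signal, FTH1 was among the brightest genes of the skin samples. With marked spots kept, probe A_70_P039496 ranked 57 and A_70_P039497 ranked 61 of 15008 by their mean over the 6 arrays, and without them they ranked 50 and 37. The third FTH1 probe, A_70_P003062, ranked 548, or 490 without its marked spots. The ATOX1 probes ranked 538 (A_70_P039487) and 554 (A_70_P039486), and the MT3 probes 1236 (A_70_P030067) and 1625 (A_70_P030066), with marked spots kept. With each gene at its brightest probe, FTH1 ranked 7, ATOX1 45 and MT3 77 among the 500 genes named through their accession. Probes differ in how well they bind, so these are ranks of signal, and they order the genes' mRNA only roughly.

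Ranks varied between lambs by different amounts. A_70_P039496 ranged from 20 to 281 and A_70_P039497 from 24 to 197 over the 6 arrays, and in each case the worst ranks were those of marked spots. A_70_P003062 ranged from 274 to 1171, again with a marked spot last. The ATOX1 probes kept to 465 to 753 (A_70_P039487) and 418 to 928 (A_70_P039486). For MT3, all 3 large wave lambs ranked behind all 3 small wave lambs at both probes. At A_70_P030066 the ranks were 1947, 2659 and 2806 in large wave lambs 1 to 3 and 1047, 1139 and 1220 in small wave lambs 1 to 3. At A_70_P030067 they were 1500, 1557 and 1811 against 1041, 728 and 1269. A rank is taken within 1 array and does not use the scaling between arrays.

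**Figure D1:**
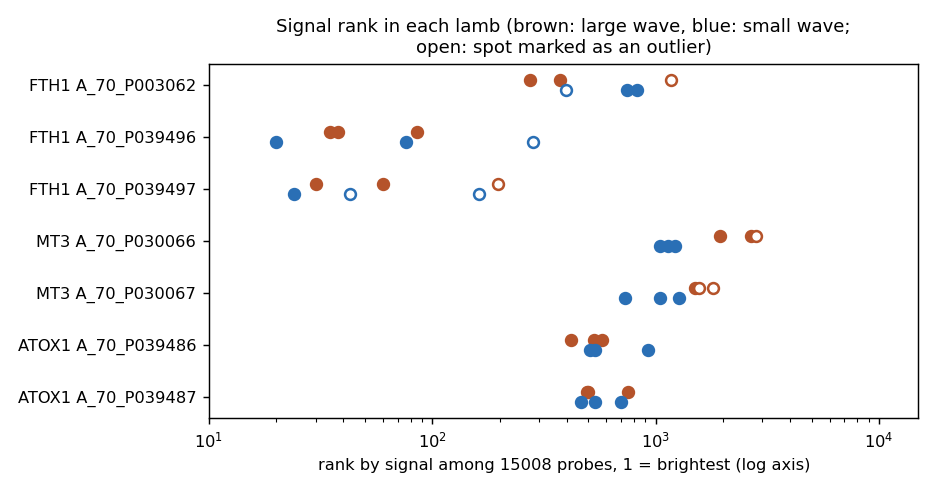
Rank of each probe by signal among the 15008 probes of its array, on a log axis with 1 the brightest; each point is 1 lamb, brown for large wave, blue for small wave, open where the spot was marked as an outlier. FTH1 probes A_70_P039496 and A_70_P039497 lie between 20 and 281, and both MT3 probes have every large wave lamb at a worse rank than every small wave lamb.

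MT3 had lower values in large wave skin at both of its probes, without passing the adjusted threshold at either. At A_70_P030066 the log2 scaled signal was 1.55, 0.999 and 0.81 in large wave lambs 1 to 3, the last from a marked spot, and 2.81, 2.92 and 2.97 in small wave lambs 1 to 3. The groups did not overlap, and the SD was 0.08 among the small wave lambs (n = 3) and 0.38 among the large wave lambs (n = 3). Without the marked spot the large wave mean was 1.28 ± 0.39 (SD, n = 2) against 2.90 ± 0.08 (SD, n = 3). The difference, large wave minus small wave, was then -1.63 ± 0.32 (SE, 95% confidence interval -2.40 to -0.85), 3.09-fold lower, with adjusted p = 0.777 in limma. With the marked spot kept it was -1.78 ± 0.30 (95% confidence interval -2.47 to -1.09), 3.43-fold lower, with adjusted p = 0.769 in limma.

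The second MT3 probe, A_70_P030067, had 2.06, 2.14 and 1.72 in large wave lambs 1 to 3 and 2.82, 3.70 and 2.89 in small wave lambs 1 to 3. Again the groups did not overlap, but the values of large wave lambs 2 and 3 came from marked spots. Without these, 1 large wave lamb stood against 3 and the difference was -1.07 ± 0.52 (SE, 95% confidence interval -2.36 to 0.21, adjusted p = 0.777 in limma). With them it was -1.17 ± 0.34 (95% confidence interval -1.94 to -0.39, adjusted p = 0.769 in limma), 2.24-fold lower. All 3 marked MT3 spots were on large wave arrays, and the direction was the same with and without them.

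Ordered by unadjusted p in limma, A_70_P030066 stood at place 2 of 10041 probes without marked spots and at place 1 of 10048 with them. A_70_P030067 stood at places 850 and 22. The background was 3.81% of probes with an unadjusted p under 0.05 without marked spots (383 probes; 2.27% of probes were also lower) and 3.68% with them (370; 2.25% also lower), and 0 passed the adjusted threshold in either fit. Among the 7 probes described here, 2 had an unadjusted p under 0.05 without marked spots, an MT3 and an FTH1 probe, and 2 with them, both MT3.

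Within the same-numbered pairs of lambs, A_70_P030066 was lower in the large wave lamb by -1.26, -1.92 and -2.16 in pairs 1 to 3 with marked spots kept, and A_70_P030067 by -0.76, -1.57 and -1.17. Both probes were thus lower in 3 of 3 pairs. Where groups do not overlap, any pairing gives this count and any split by slide row a lower mean. These signs therefore add nothing to the group difference. Within the first row of the slide the differences were -1.90 (A_70_P030066) and -0.90 (A_70_P030067), and within the second row -1.40 and -1.23. With array brightness as a covariate and marked spots kept they were -1.86 and -1.12.

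Before scaling, the MT3 groups overlapped. The processed signal of A_70_P030066 was 1147, 409 and 438 in large wave lambs 1 to 3 and 1995, 1155 and 742 in small wave lambs 1 to 3. That of A_70_P030067 was 1638, 900 and 820 against 2017, 1983 and 701. Unscaled differences were -1.02 ± 0.58 (SE) at A_70_P030066 and -0.40 ± 0.56 at A_70_P030067, where the median over all probes was 0.74, with large wave arrays on average brighter. Within the second slide row the unscaled differences were above 0, at 0.31 and 0.47, and within the first -2.24 and -1.23. The second row set large wave lamb 1 (75th percentile 392) against small wave lambs 2 and 3 (152 and 94.7). The first set large wave lambs 2 and 3 (205 and 249) against small wave lamb 1 (285). Over 10 ways of scaling and of treating marked spots, the groups stayed apart in 9 at A_70_P030066, the exception being no scaling. At A_70_P030067 they stayed apart in 7, the exceptions being no scaling and normexp background correction with marked spots either left out or kept. The 10 ways are not independent, as the authors' deposited table nearly repeats quantile normalization. At A_70_P030066 these gave -1.594 and -1.596 with marked spots kept, and -1.432 and -1.433 without them.

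The 2 MT3 probes differed from each other by 0.02 to 1.14 on the log2 scale over the 6 arrays. They lay closest in small wave lambs 1 and 3 (1.01-fold and 1.06-fold in signal) and farthest in large wave lamb 2 (2.20-fold), where 1 of them was marked. As the groups form separate clusters at both probes, a correlation over all 6 arrays would restate the group difference. It is not given, and the relation within groups was not tested. Genes of the metallothionein family are alike in sequence. How much signal from other family members reached these probes was not tested.

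**Figure D2:**
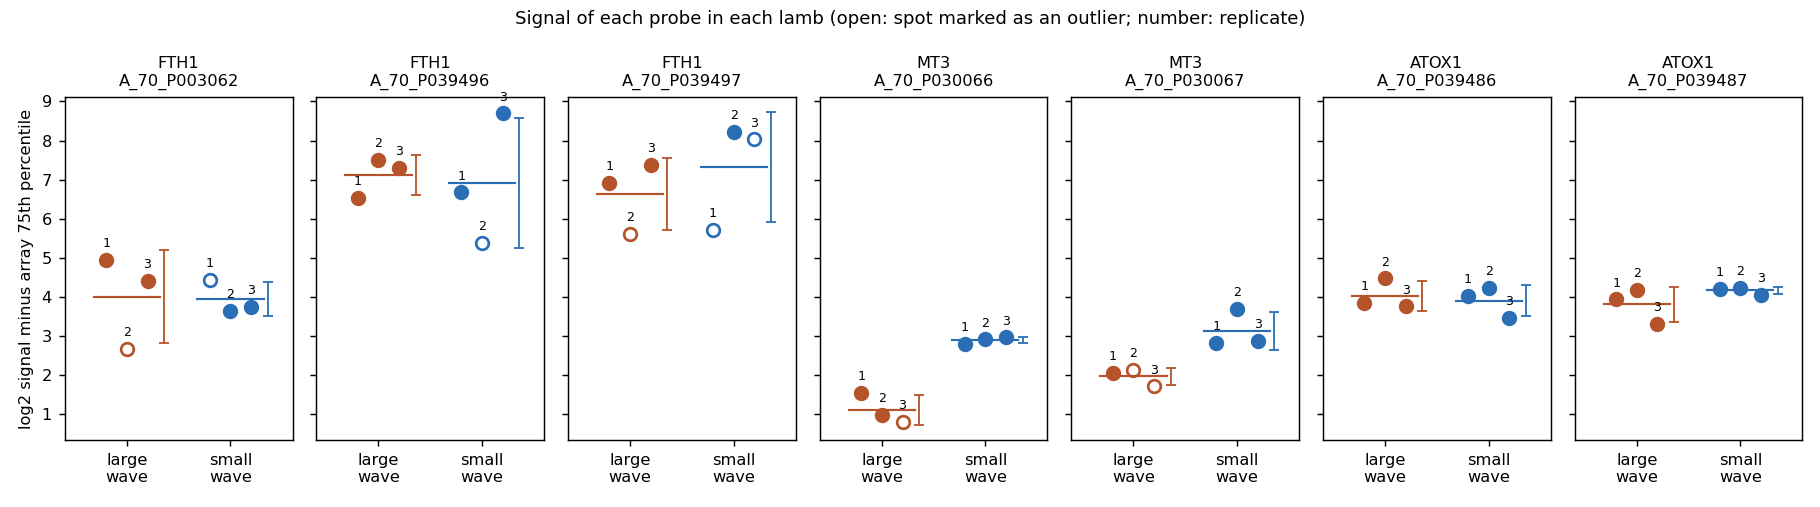
Log2 signal minus the array's 75th percentile for each of the 7 probes, 1 point per lamb with its replicate number; lines are group means and bars the SD (n = 3 per group) with marked spots kept, and open points are marked spots. The MT3 groups do not overlap at either probe, the ATOX1 groups overlap at both, and 4 open FTH1 points at the bright probes include the lowest value of each probe.

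After scaling to the 75th percentile, FTH1 showed no common direction between coat patterns. With marked spots kept, its probes did not follow each other over the 6 arrays. At A_70_P039497 the log2 scaled signal was 6.92, 5.61 and 7.38 in large wave lambs 1 to 3 and 5.71, 8.23 and 8.03 in small wave lambs 1 to 3, with large wave lamb 2 and small wave lambs 1 and 3 from marked spots. At A_70_P039496 it was 6.54, 7.50 and 7.30 against 6.68, 5.39 and 8.70, with only small wave lamb 2 from a marked spot. The groups overlapped at both probes once all 6 values were used.

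Without marked spots the difference, large wave minus small wave, was -1.08 ± 0.59 (SE, 2 against 1 lamb, 95% confidence interval -2.62 to 0.45) at A_70_P039497 and -0.57 ± 0.66 (3 against 2, 95% confidence interval -2.14 to 0.998) at A_70_P039496. With them it was -0.69 ± 0.76 (95% confidence interval -2.46 to 1.09) and 0.19 ± 0.79 (95% confidence interval -1.64 to 2.03), so that the sign at A_70_P039496 turned on 1 spot. It also turned without small wave replicate 3, to 0.44. The unmarked spots behind the -1.08 had processed signals of 47360 and 41399 in large wave lambs 1 and 3 and 45673 in small wave lamb 2. Their arrays had a 75th percentile of 392, 249 and 152. At A_70_P039496 the unmarked signals were 36421, 37046 and 39294 in large wave lambs 1 to 3. In small wave lambs 1 and 3 they were 29110 and 39269. Brightness and group cannot be told apart in the differences without marked spots. Adjusted p values in limma were 0.777 and 0.814 without marked spots and 0.802 and 0.959 with them.

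The third probe, A_70_P003062, had 4.94, 2.68 and 4.42 in large wave lambs 1 to 3 and 4.44, 3.66 and 3.75 in small wave lambs 1 to 3, with large wave lamb 2 and small wave lamb 1 from marked spots. Without those spots it had the opposite sign to the other FTH1 probes, 0.98 ± 0.38 (SE, 2 against 2 lambs, 95% confidence interval 0.03 to 1.93, unadjusted p = 0.044, adjusted p = 0.777 in limma), and the groups did not overlap. With them the difference was 0.07 ± 0.59 (95% confidence interval -1.29 to 1.43, adjusted p = 0.980 in limma). The value of 0.98 sets large wave lambs 1 and 3, whose arrays had a 75th percentile of 392 and 249, against small wave lambs 2 and 3, at 152 and 94.7. Brightness and group cannot be told apart in it. The signs at FTH1 also depended on the scaling. After normexp correction without marked spots, all 3 probes were above 0, at 1.53 (A_70_P003062), 0.20 (A_70_P039496) and 0.081 (A_70_P039497). They were also all above 0 after normexp correction with marked spots kept. With no scaling and marked spots kept they were 0.83, 0.95 and 0.075. Under the other ways of scaling and of treating marked spots the signs were mixed.

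Over all 7 probes, the groups did not overlap at 4 without marked spots, 3 lower and 1 higher in large wave skin, where the background was 11.1% of the probes tested (6.12% lower, 4.99% higher). With marked spots kept they did not overlap at 2, both MT3 and both lower, where the background was 9.74% in either direction and 5.19% in the lower direction. All 4 probes that stood apart without marked spots had lost values, and fewer values overlap less often. Among all probes with the same number of values per group, the groups did not overlap at 68.8% with 2 against 1 (as FTH1 A_70_P039497), 46.2% with 1 against 3 (as MT3 A_70_P030067), 31.5% with 2 against 2 (as FTH1 A_70_P003062) and 21.2% with 2 against 3 (as MT3 A_70_P030066). The count of 4 is therefore not set against the 11.1%.

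**Figure D3:**
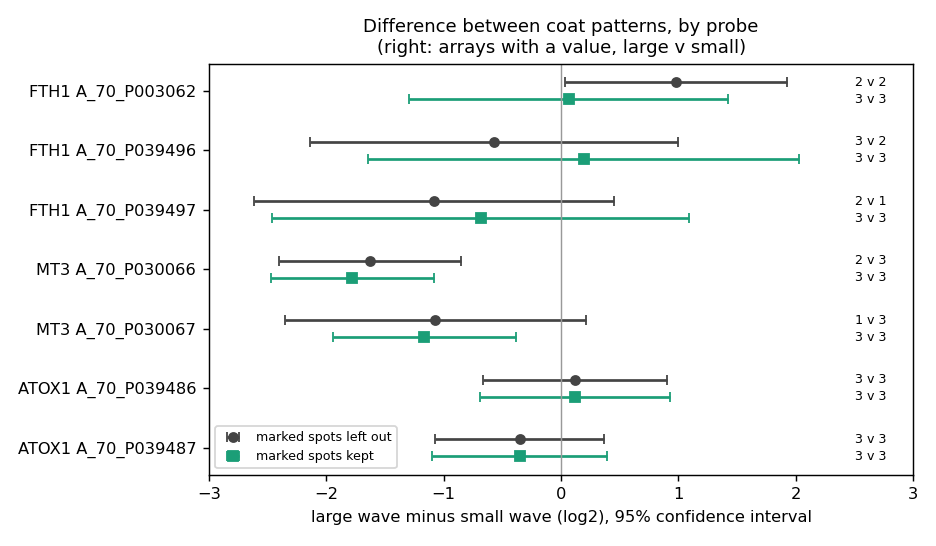
Difference in log2 scaled signal, large wave minus small wave, with its 95% confidence interval in limma for each probe, circles without and squares with marked spots; the numbers at the right are the arrays with a value in each group. Both MT3 differences lie below 0 either way, though the interval of A_70_P030067 without marked spots, -2.36 to 0.21, holds 0; the FTH1 differences lie on both sides of 0, and the ATOX1 intervals all hold 0.

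At the bright FTH1 probes the 4 marked spots were dimmer than every unmarked spot of their probe. At A_70_P039497 the 3 unmarked spots had processed signals of 41399 to 47360 and the 3 marked ones 10022 to 24696. At A_70_P039496 the 5 unmarked spots had 29110 to 39294 and the marked one 6372. All unmarked spots of both probes, and the marked one at 24696, carried the low-gain flag, and the other marked ones did not. The part of this flag in the signals was not tested. At A_70_P003062 the 2 marked spots, 1309 and 6195, lay within the range of the unmarked ones, 1270 to 12054. On the 2 arrays where neither of these 2 probes was marked, large wave 1 and 3, they differed by 0.38 and 0.08 on the log2 scale. On the 4 arrays where 1 of them was marked, they differed by 0.67 to 2.84, and the marked spot was the lower one in 4 of 4. Over all probes past the filter, 64.8% of 1109 marked values lay below the median of the unmarked values of their probe, by a median difference of -0.35.

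Unmarked FTH1 signals at the 2 bright probes spanned less than the brightness of their arrays. At A_70_P039496 they spanned 1.35-fold over 5 arrays, where the 75th percentile spanned 4.13-fold and the median of the 100 brightest probes 2.39-fold. At A_70_P039497 they spanned 1.14-fold over 3 arrays, where these spans were 2.57-fold and 1.71-fold. All these unmarked spots carried the low-gain flag, and its part in the spans was not tested. At A_70_P039496 small wave lamb 3, on the dimmest array, had 8.70 after scaling and a signal of 39269 before it, against 6.54 and 36421 in large wave lamb 1 on the brightest array. The third FTH1 probe spanned 9.49-fold, from 1270 to 12054, over its 4 unmarked spots, with the highest on the brightest array and the lowest on the dimmest. ATOX1 spanned 5.40-fold (A_70_P039486) and 3.82-fold (A_70_P039487) over 6 unmarked spots.

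**Figure D4:**
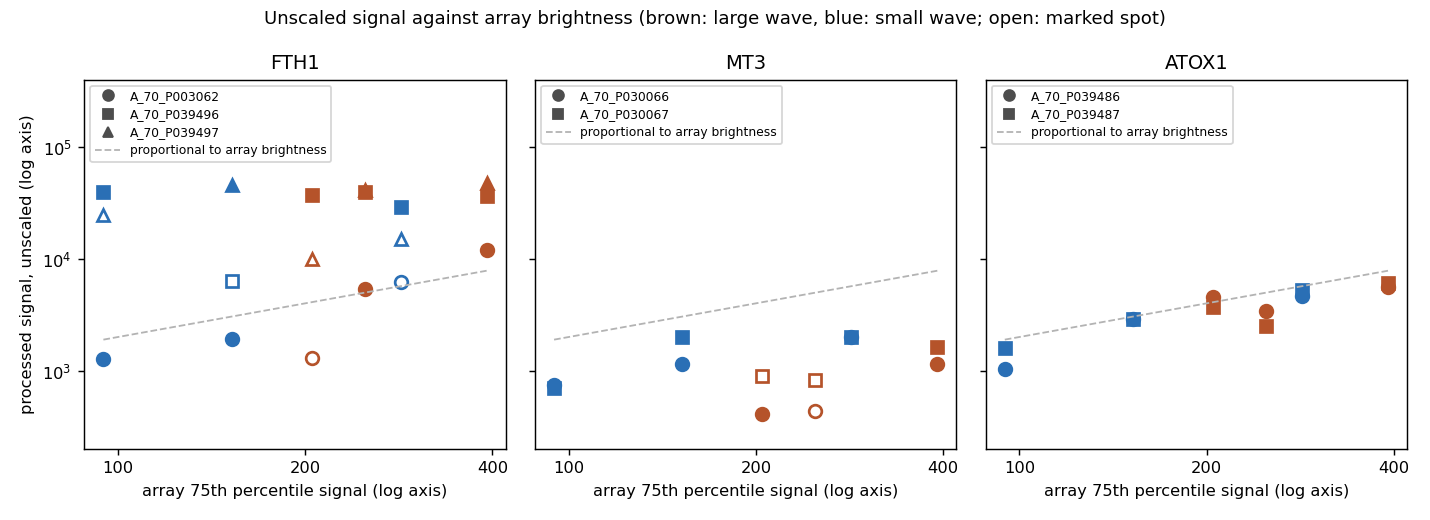
Unscaled processed signal of each probe against the 75th percentile signal of its array, both on log axes; brown points are large wave and blue small wave lambs, open points marked spots, and the dashed line shows the slope of a signal proportional to array brightness. Unmarked spots of FTH1 probes A_70_P039496 and A_70_P039497, all with the low-gain flag, stay between 29110 and 47360 on every array, while ATOX1, without it, runs along the slope, from 1044 to 6034.

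Agreement between probes of 1 gene was examined over the 6 arrays with marked spots kept, in 5 probe pairs. All tests were two-sided exact permutation tests, adjusted over the 5 pairs, that of MT3 included. The bright FTH1 probes A_70_P039496 and A_70_P039497 gave r = -0.06 (exact p = 0.903, adjusted p = 0.903) and rho = -0.26 (exact p = 0.658, adjusted p = 0.823). On 4 of the 6 arrays 1 of these 2 spots was marked, and the part of the marks in this r was not tested. A_70_P003062 and A_70_P039497 gave r = 0.15 (exact p = 0.794, adjusted p = 0.903) and rho = -0.09 (exact p = 0.919, adjusted p = 0.919). A_70_P003062 and A_70_P039496 gave r = -0.22 (exact p = 0.697, adjusted p = 0.903) and rho = -0.31 (exact p = 0.564, adjusted p = 0.823). Without the 2 arrays farthest from the median of the first-named probe, these r were -0.09, -0.82 and 0.06, each over only 4 arrays. The ATOX1 pair gave r = 0.46 (exact permutation p = 0.372, adjusted p = 0.903) and rho = 0.66 (exact permutation p = 0.175, adjusted p = 0.438). Its r was 0.82 without the 2 arrays farthest from the median of A_70_P039486. For comparison, 153 pairs of tested probes that share a named gene had a median r of 0.57, with quartiles of 0.13 and 0.85. The 3 FTH1 values lay above 15.7%, 25.5% and 9.15% of these pairs and the ATOX1 value above 41.8%. All these values share the scale factor of their array.

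The FTH1 probes also differed in level. A_70_P003062 differed from A_70_P039496 by a mean of -3.04 on the log2 scale, 8.20-fold dimmer in signal, and the fold ran from 3.02 in large wave lamb 1 to 30.9 in small wave lamb 3, both without marked spots. The ATOX1 probes differed by a mean of only -0.02, with gaps from -0.60 to 0.45 between arrays.

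At ATOX1 no difference between coat patterns was detectable. A_70_P039487 had 3.95, 4.19 and 3.32 in large wave lambs 1 to 3 and 4.21, 4.24 and 4.06 in small wave lambs 1 to 3. A_70_P039486 had 3.85, 4.47 and 3.77 against 4.03, 4.24 and 3.46. The groups overlapped at both. Differences were -0.35 ± 0.31 (SE, 95% confidence interval -1.07 to 0.36, adjusted p = 0.781 in limma) at A_70_P039487 and 0.12 ± 0.34 (95% confidence interval -0.66 to 0.90, adjusted p = 0.938 in limma) at A_70_P039486, opposite in sign. The sign at A_70_P039486 turned without large wave replicate 2, to -0.10, and without small wave replicate 3, to -0.11. With marked spots kept, the SD of the scaled values over all 6 lambs was 0.35 (A_70_P039487) and 0.36 (A_70_P039486) at ATOX1. It was 0.72 (A_70_P030067) and 1.01 (A_70_P030066) at MT3, group difference included, and 0.80 (A_70_P003062), 1.11 (A_70_P039496) and 1.12 (A_70_P039497) at FTH1.

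Few other genes of metal handling could be read on this array. Of 36 genes listed for iron, 4 were on the array by name and 1 was tested, of 27 for copper 2 and 2, of 26 for zinc and metallothionein 1 and 1, and of 21 for oxidative stress 2 and 1. The 5 tested genes were split, with 3 above and 2 below 0 for large wave minus small wave, and 0 passed the adjusted threshold or an unadjusted p under 0.05 in limma, where 51.3% of all probes tested were lower. The list medians were -0.05 for iron, 0.45 for copper, 0.96 for zinc and -0.18 for oxidative stress, against -0.02 over all probes.

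Among the iron genes, LOC100147796, whose older name SLC25A37 is that of the mitochondrial iron carrier mitoferrin, had -0.05 ± 0.31 (SE). Ceruloplasmin (CP), a copper oxidase of plasma, and SLC11A1, a metal transporter of phagocytes, were well above background on 0 of 6 arrays at both of their probes, and lactoferrin (LTF) on 2. Among the copper genes, ATP7B, a copper pump that takes copper from ATOX1, had 0.65 ± 0.86 at a probe well above background on 3 arrays, and the pigment enzyme TYR had 0.25 ± 0.59. Both copper values had the opposite sign after normexp correction, -0.07 and -0.02. The zinc transporter SLC39A7 had 0.96 ± 0.71, with small wave lamb 3 at -5.15 and the other 5 lambs between -3.05 and -2.13. Thioredoxin (TXN), a disulphide reductase, had -0.18 ± 0.30 at its brighter probe, which turned to 0.10 after normexp correction and 0.15 in the authors' deposited table, and -0.84 ± 0.54 at its dimmer probe, which had -0.28 with marked spots kept and -0.04 in the authors' deposited table.

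The genes whose values ran most like those of the members over the 6 lambs were taken by Pearson's r with the member's representing probe, with marked spots kept, among 344 other named genes, as a description of 6 points that share their arrays and scale factors. For MT3 (A_70_P030067) these were PTGDS, a prostaglandin D synthase (r = 0.95), the growth hormone receptor GHR (0.88) and ARFIP2 (0.87), where the median over the 344 genes was 0.17. These 3 genes were also lower in large wave skin, by -0.81, -0.69 and -0.74 with marked spots kept. Their r with MT3 therefore hold the group difference as well. For FTH1 (A_70_P039497) the genes were IL2RA, a chain of the interleukin receptor of T cells (0.95), AANAT, an enzyme of melatonin synthesis (0.92, and 0.58 at its other probe), and the growth factor IGF2 (0.90, and -0.31 at its other probe). At A_70_P039497, 3 of the 6 values came from marked spots, and its r with the FTH1 probe A_70_P039496 was -0.06. For ATOX1 (A_70_P039487) the genes were the activin receptor ACVR2A (0.95, and -0.22 at its other probe), ATP5PO, a subunit of the mitochondrial ATP synthase (0.92), and PSIP1 (0.88). With 6 arrays, 2.62% to 4.36% of the genes reached an r above 0.8 with 1 of the 3 members.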

How the data were processed

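Each array took Cy3-labelled cRNA amplified from the total skin RNA of 1 lamb, per the labels' protocols. The authors' deposited scanner files hold, per the file headers, intensity values made with Agilent Feature Extraction 10.7.3.1, which the submitters' processing notes give as 10.7. The column used was the processed signal, from which background had been subtracted and which was not scaled across arrays. A further table the authors deposited has log2 values, and the sources used here do not state how they were normalised. Each column correlated at 0.999997 or above, across probes, with quantile-normalised log2 processed signals, and it was used as an alternative.

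The log2 processed signal was taken minus the array's 75th percentile, outlier-marked spots were left out and spots of a probe averaged. Probes well above background on at least 3 of 6 arrays were kept (10048), of which 10041 had enough values for a test. Groups were compared with limma 3.58.1 in R 4.3.3 (lmFit, eBayes with trend, Benjamini-Hochberg over all probes, threshold 0.05), which was tested on simulated data. Names came from accessions matched to the RefSeq table of ARS-UI_Ramb_v3.0: 767 of 786 RefSeq probes matched, giving 500 genes. No sequences or coordinates were used. Lists matched genes by symbol or older name. PTGS1 and MTNR1A, reached only through older names shared with listed genes, were left out.

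The named genes were all probes of the 3 members; up to 3 higher and 3 lower genes of each list by unadjusted p; and the 3 genes most like each member. Iron genes of the lists that were on the array without a test are named too, chosen after their values were seen. Of the oxidative stress list, 1 gene is not reported here. Members, lists and tests were chosen with earlier results of these data known. Alternatives were other scalings, filters, blocks, weights, covariates and left-out arrays. Chosen after seeing the data were the combinations of a second setting with marked spots kept, no scaling, and the authors' table without marked spots.

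Same-numbered lambs deviated together from their group means (r = 0.30, 0.18 and 0.20 over 9220 probes, across probes). All 3 exceeded 0.1, and the replicate numbers were therefore taken as pairs. No label says so, and same-numbered arrays share a slide column. Precision is limited by the number of arrays, and the median half-width of the 95% confidence interval over all probes was 1.06 on the log2 scale. p-values measure the spread between these lambs, which are related.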

Additional observations from a re-analysis of the deposited data

How the results depend on the processing

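Both MT3 probes kept the lower direction in large wave skin under the alternative fits, though unscaled values within slide row 2 (0.31 and 0.47) and, at A_70_P030067, in pair 3 (0.23) did not. In slide row 2 and in pair 3, the large wave array was brighter than the small wave arrays set against it. A_70_P030066 ran from -1.90 to -1.21 without marked spots and from -1.995 to -1.02 with them, and A_70_P030067 from -1.29 to -0.55 and from -1.32 to -0.40. In limma 0 probes of the array passed the adjusted threshold under any of the 18 alternatives, while those with an unadjusted p under 0.05 numbered 383 in the main setting, 137 with the slide row as a block, 974 with array weights, 246 with brightness as a covariate, and 153 to 1758 with 1 array left out, the highest without small wave replicate 1. With the replicate block, which took the same-numbered lambs as pairs, 558 probes had an unadjusted p under 0.05 and 0 passed; A_70_P030066 had -1.59 (adjusted p = 0.624 in limma), A_70_P039496 -0.77 and the ATOX1 probes 0.12 and -0.35. The block changed no call, and could not be fitted for A_70_P003062, A_70_P039497 and A_70_P030067 without marked spots. With marked spots kept, the block gave -1.78 ± 0.31 (SE) at A_70_P030066 and -1.17 ± 0.30 at A_70_P030067 (adjusted p = 0.625 in limma at both). At FTH1 it then gave 0.07 ± 0.41 at A_70_P003062, 0.19 ± 0.69 at A_70_P039496 and -0.69 ± 0.73 at A_70_P039497. Leaving out single arrays gave -1.90 to -1.35 for A_70_P030066, -1.23 to -0.79 for A_70_P030067, 0.72 to 1.24 for A_70_P003062 (-0.40 to 0.73 with marked spots), -1.58 to 0.44 for A_70_P039496 (-0.57 to 1.08 with them), -1.31 to -0.85 for A_70_P039497 (-1.49 to -0.17 with them), -0.11 to 0.28 for A_70_P039486 and -0.54 to -0.10 for A_70_P039487. The sign turned at A_70_P039496 with normexp (0.20), the authors' deposited table (0.64), marked spots kept (0.19), brightness as a covariate (0.31) and within slide row 1 (0.72). It turned at A_70_P039497 with normexp (0.081, or 0.025 with marked spots kept) and with no scaling and marked spots kept (0.075). With marked spots kept, brightness as a covariate turned A_70_P003062 (-0.63) and no scaling turned A_70_P039487 (0.41). A_70_P039486 turned with array weights (-0.081) and within slide row 2 (-0.0052). Copper genes with higher values went from 2 to 0 with normexp and 1 with the brightness covariate, zinc genes from 1 to 0 with that covariate, and oxidative stress genes from 0 to 1 with normexp and with the authors' deposited table. The cause of these changes was not tested.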
